A study of Mus musculus with 61 samples.

Results

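The genes described here are 9 components of the piRNA pathway: Piwil2, Piwil4, Tdrd1, Tdrd5, Tdrd7, Tdrd9, Tdrkh, Mov10l1 and Mael. They were taken by name as transposon-silencing genes, and all 9 had a row among the 23927 gene rows of the count table. Each library held 1 ovarian cell of a wild-type mouse of the outbred strain CD-1 at postnatal day 5. The mice had received an intraperitoneal injection of solvent (control) or of doxorubicin, an anthracycline that intercalates into DNA and poisons topoisomerase II, and cells were taken 6 h later. The labels gave 16 control oocytes, 16 oocytes after doxorubicin, 16 control granulosa cells and 13 granulosa cells after doxorubicin, the granulosa cell being the somatic cell that surrounds the oocyte in the follicle. The dose is written as 10 in a unit that is not a dose unit, so it is left uncertain. Since the labels named no animal or litter, each group counted as 1 sample, no test between groups was possible, and ranges below describe cells.

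PIWI proteins carry small RNAs called piRNAs, which guide them to the transcripts and genomic copies of transposons in germ cells. The precursors are cut and trimmed in perinuclear granules beside mitochondria, where Tudor-domain proteins dock PIWI proteins through methylated arginines. In mice the loss of most of these proteins blocks spermatogenesis while females stay fertile, and growing mouse oocytes also make small interfering RNAs against transposons with Dicer.

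The start regions of the genes are shown for the 4 genes whose control oocytes lay wholly above the control granulosa libraries and that have an entry in the RefSeq promoter table, and for Tdrd5, which differed most between control and doxorubicin oocytes among the genes above 100 CPM. Each runs 5′ to 3′ from 250 bases before to 50 bases after the RefSeq start site on GRCm38.p6, which is the mm10 assembly. Capitals mark matches on either strand to CACGTG and CACCTG, forms of the E-box bound by basic helix-loop-helix proteins, to CCAAT, bound by the NF-Y complex, and to GCGGGA, a core of sites bound by E2F proteins.
Mael, chr1:166238695-166238994, minus strand: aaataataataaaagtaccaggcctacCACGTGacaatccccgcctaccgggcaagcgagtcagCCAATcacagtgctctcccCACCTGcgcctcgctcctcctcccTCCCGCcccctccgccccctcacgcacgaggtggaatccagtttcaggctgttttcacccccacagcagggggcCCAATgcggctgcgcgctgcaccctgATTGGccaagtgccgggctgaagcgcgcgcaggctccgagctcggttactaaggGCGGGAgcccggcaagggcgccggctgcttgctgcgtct
Mov10l1, chr15:88982744-88983043, plus strand: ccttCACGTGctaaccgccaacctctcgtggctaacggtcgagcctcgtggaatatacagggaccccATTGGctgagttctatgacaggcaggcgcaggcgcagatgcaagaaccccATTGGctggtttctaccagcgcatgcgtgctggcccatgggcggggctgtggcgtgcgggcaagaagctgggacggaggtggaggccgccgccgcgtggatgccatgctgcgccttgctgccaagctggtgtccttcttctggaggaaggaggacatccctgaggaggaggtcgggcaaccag
Tdrd1, chr19:56825959-56826258, plus strand: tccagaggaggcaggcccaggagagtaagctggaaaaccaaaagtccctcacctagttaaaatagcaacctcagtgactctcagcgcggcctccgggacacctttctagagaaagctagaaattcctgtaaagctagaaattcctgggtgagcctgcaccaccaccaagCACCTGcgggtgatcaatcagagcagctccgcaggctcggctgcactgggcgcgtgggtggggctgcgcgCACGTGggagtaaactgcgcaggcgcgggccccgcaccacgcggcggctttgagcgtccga
Tdrd9, chr12:111971309-111971608, plus strand: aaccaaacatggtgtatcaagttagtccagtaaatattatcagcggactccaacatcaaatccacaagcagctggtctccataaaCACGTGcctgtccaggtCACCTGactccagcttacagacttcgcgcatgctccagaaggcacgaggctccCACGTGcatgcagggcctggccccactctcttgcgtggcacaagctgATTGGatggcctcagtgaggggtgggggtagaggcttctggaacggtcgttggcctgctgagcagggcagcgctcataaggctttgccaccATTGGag
Tdrd5, chr1:156303299-156303598, minus strand: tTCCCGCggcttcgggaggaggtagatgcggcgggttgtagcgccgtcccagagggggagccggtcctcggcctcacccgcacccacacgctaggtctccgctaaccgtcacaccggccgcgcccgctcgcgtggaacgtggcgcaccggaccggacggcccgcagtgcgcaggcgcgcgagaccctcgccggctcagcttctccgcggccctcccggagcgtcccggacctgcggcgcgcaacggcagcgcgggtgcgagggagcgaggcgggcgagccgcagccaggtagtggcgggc
CACGTG stood in these windows of Mael, Mov10l1, Tdrd1 and Tdrd9, which were 4 of the 8 genes with an entry, beside 7.15% of all 32851 promoters of that length in the table. The single match in Tdrd1 began 11 bases before the start site, those in Tdrd9 began 165 and 95 bases before it, and those in Mael and Mov10l1 began 223 and 246 bases before it. CACCTG stood in 4 of the 8 (20.2% of all promoters), CCAAT in 4 of the 8 (37.4%) and GCGGGA in 2 of the 8 (19.98%), and no matches overlapped. Tdrkh held 5 matches to CCAAT, and Piwil4 and Tdrd7 held none of the 4 motifs. Tdrd5 held no E-box of these forms and no CCAAT. A match describes letters in this window only and was not tested as a site.

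Library totals ran from 6834594 to 31262609 counts. All 32 oocyte libraries matched their label, with a summed level of 18 oocyte markers (Gdf9, Zp3, Figla and others) above that of 18 granulosa markers (Amh, Foxl2, Fst and others). The libraries labelled granulosa did not all do so: the oocyte sum was the higher in 6 of 16 control and 8 of 13 doxorubicin libraries, and its median was 1785 CPM in controls and 10150 CPM after doxorubicin. These libraries are therefore called granulosa libraries here. For members that reached 5 CPM, ratios are also given for the 10 control and 5 doxorubicin libraries with the higher granulosa sum. Results for other genes come from all granulosa libraries. This choice did not use other cell types. A sum of 8 stroma markers reached 13451 CPM in control and 8635 CPM in doxorubicin granulosa libraries. The latter was library 13, which is among the 5 although its granulosa sum was 1490 CPM. A sum of 8 blood and immune markers reached 34796 CPM in a doxorubicin granulosa library. Among doxorubicin oocytes, granulosa marker sums reached 3009 CPM, against 767 CPM at most in control oocytes. Cdkn1a, a p53 target that halts the cell cycle, was higher after doxorubicin by 3.06 on the log2 scale in oocytes and by 6.42 in granulosa libraries. For Cdkn1a 12 of 16 doxorubicin oocytes lay above every control oocyte, and the share of all genes with as many was not computed.

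Control oocytes held transcripts of nearly the whole set, while granulosa libraries held a scattered few. At a level of at least 1 CPM (the count of a gene as a share of all counts, scaled to 1000000), every oocyte held 8 or 9 of the 9 genes, with a median of 9 in both treatments. Control granulosa libraries held 0 to 4 with a median of 2, and doxorubicin granulosa libraries held 2 to 6 with a median of 4. The summed level of the 9 genes ran from 2863 to 5270 CPM in control oocytes (median 3849) and from 0.601 to 1286 CPM in control granulosa libraries (median 174), so the groups did not overlap.

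**Figure D1:**
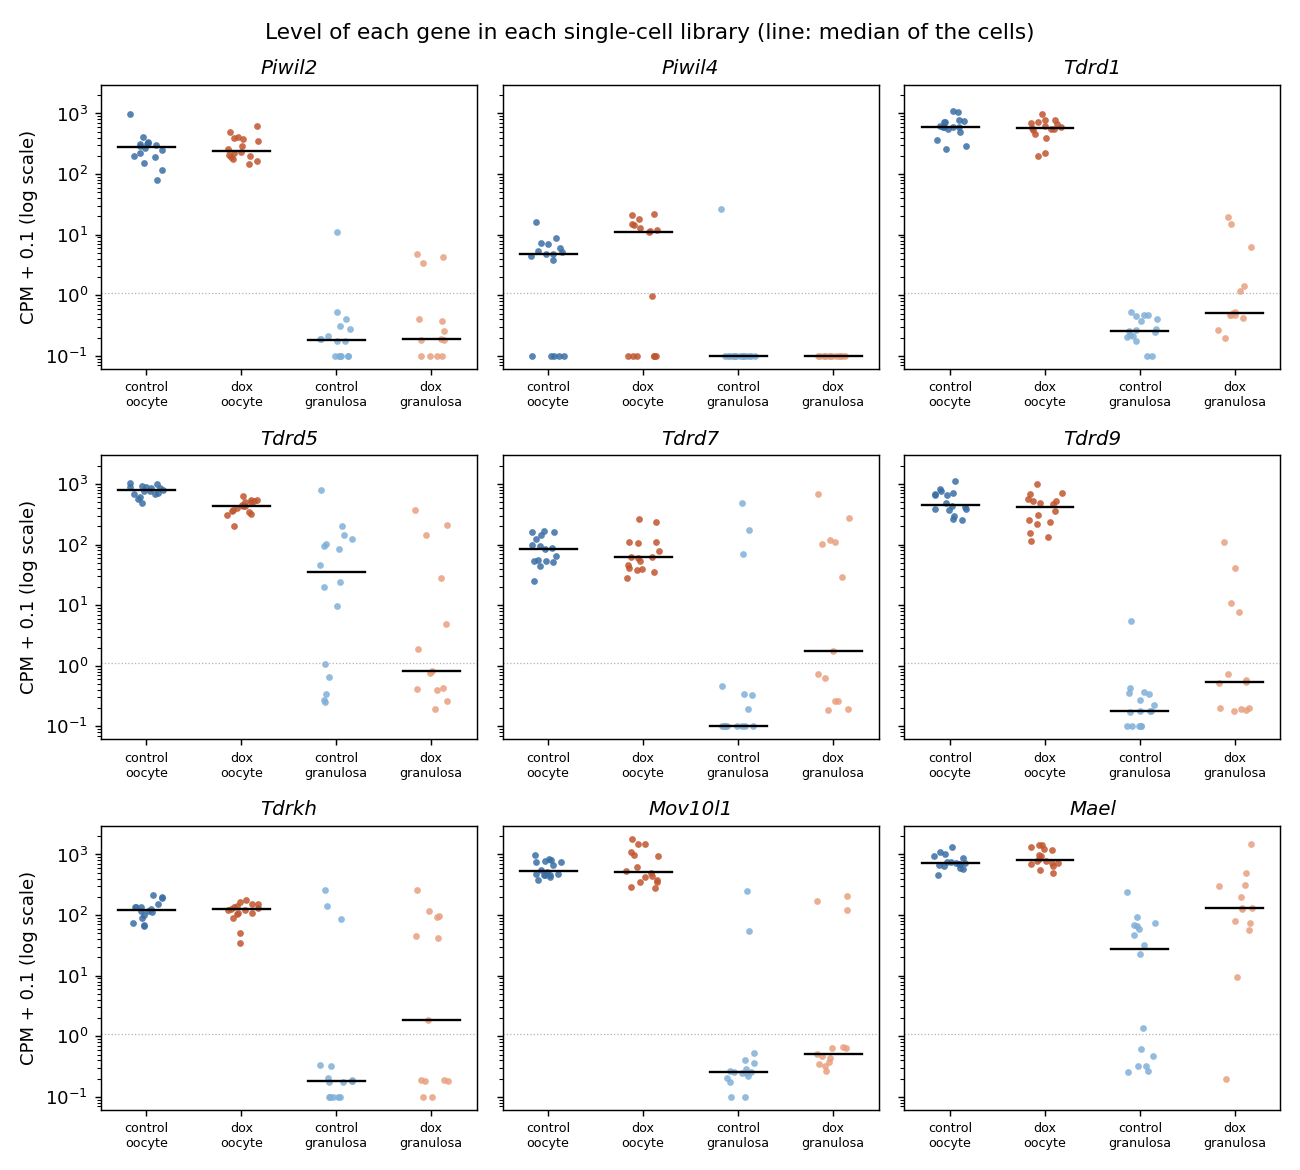
Level of each of the 9 genes in each single-cell library, as CPM + 0.1 on a log scale, by group; each point is 1 library, the line is the median of the cells and the dotted line marks 1 CPM. For Piwil2, Tdrd1, Tdrd9, Mov10l1 and Mael every control oocyte lies above every control granulosa library, and Tdrd5 is lower in doxorubicin oocytes than in control oocytes.

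Levels between genes were compared per kb of the longest annotated transcript (GENCODE M21 on GRCm38), as medians over the 16 control oocytes. Mael, an HMG-box protein of the granules needed for silencing of LINE-1 elements, stood first with 428 CPM per kb, and its level was above that of the next gene in 16 of 16 cells. Tdrd5, a Tudor protein that binds piRNA precursors, followed with 209 CPM per kb and lay above Mov10l1 (129 CPM per kb), the RNA helicase that starts precursor processing, in 12 of 16 cells. Tdrd1, a Tudor scaffold for the PIWI protein MILI, had 117 CPM per kb and Tdrd9, a Tudor helicase that acts with the PIWI protein MIWI2, had 95.2 CPM per kb, and Tdrd1 exceeded Tdrd9 in only 7 of 16 cells. Piwil2, which encodes MILI, had 56.7 CPM per kb and lay below Tdrd9 in 13 of 16 cells. Tdrd7, a granule protein also needed in the lens, had 23.1 CPM per kb, and Tdrkh, the mitochondrial Tudor protein that supports trimming, had 21.2 CPM per kb. Their order held in 9 of 16 cells, so they were not separated. Piwil4, which encodes the nuclear PIWI protein MIWI2, was last with 1.42 CPM per kb and lay below Tdrkh in all 16 cells.

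After doxorubicin, the medians of neighbours in this order changed places at 2 points. Tdrd5 had a median of 115 CPM per kb in doxorubicin oocytes against 124 CPM per kb for Mov10l1, and lay above it in 5 of 16 cells. Tdrd7 had 16.5 CPM per kb against 21.8 CPM per kb for Tdrkh and lay above it in 7 of 16 cells, so these remained unseparated. Tdrd1 (113 CPM per kb) and Tdrd9 (85.5 CPM per kb) kept the order of their medians. Tdrd1 lay above Tdrd9 in 13 of 16 doxorubicin oocytes, against 7 of 16 control oocytes. Mael remained first in 16 of 16 cells with 479 CPM per kb, and Piwil4 last with 3.34 CPM per kb.

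**Figure D2:**
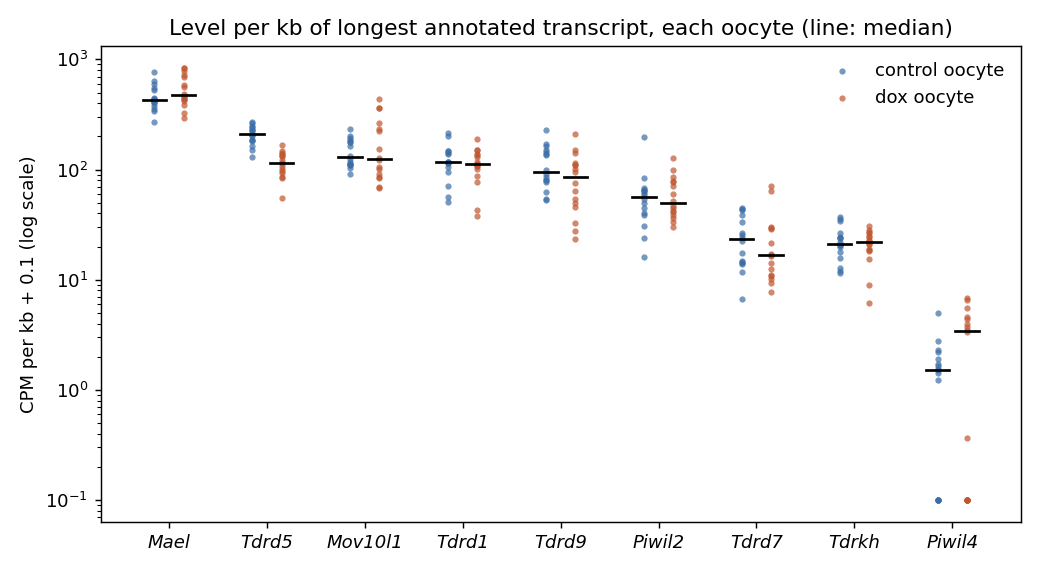
Level of each gene in each oocyte as CPM per kb of the longest annotated transcript, plus 0.1, on a log scale, for control and doxorubicin (dox) oocytes, with genes ordered by their control median and the line marking the median. Mael is highest and Piwil4 lowest in both groups, and the medians of Tdrd5 are 209 and 115 CPM per kb.

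Doxorubicin over control in oocytes left most of the 9 genes close to their control level, with Tdrd5 lower and Piwil4 higher. All 9 had at least 5 CPM in either group. The median log2 ratio of group CPM was -0.10, against 0.01 over all 11119 genes at that level, with 4 genes higher and 5 lower. Past a 2-fold difference, 1 gene was higher, Piwil4, where 6.3% of all genes were, and 0 were lower, where 2.45% were. Piwil4 reached 5 CPM in the doxorubicin group alone, so the limit fixed its direction. Past 0.5 on the log2 scale 1 was higher (13.8% of all genes) and 1, Tdrd5, was lower (10.3%). These shares are near those of all genes.

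Tdrd5 (minus strand, chr1:156255296-156303664) had 780 CPM over the control oocytes, with a lowest cell of 488, a median of 784 and a highest of 1019 CPM. After doxorubicin it had 429 CPM, with a lowest cell of 206, a median of 431 and a highest of 623 CPM. Of the 16 doxorubicin oocytes 10 lay below the lowest control oocyte and 6 overlapped the control range. As many doxorubicin oocytes below the control range were found for 0.234% of all genes, or 26 of 11119, a measure chosen after the values of Tdrd5 were seen. The log2 ratio was -0.86 (95% counting interval -0.87 to -0.85), a level 1.82-fold lower, and 3.51% of all genes had a ratio that low or lower. It ran from -0.90 to -0.82 when each cell was left out in turn and was -0.76 in the 13 control and 11 doxorubicin oocytes with under 200 CPM of granulosa markers. Within a cell, Tdrd5 made up 10.3% to 26.1% of the summed level of the 9 genes in control oocytes (median 22.2%) and 8.73% to 19.2% after doxorubicin (median 11.4%). Set against Mael in the same cell, its median was 104% of the Mael level in control oocytes and 51.4% after doxorubicin, and 9 of 16 doxorubicin cells lay below the lowest control cell. The oocyte marker sum was also lower after doxorubicin, with a median of 33336 CPM against 46126 CPM in controls, and its part in the result was not tested. As a share of the summed oocyte marker counts, Tdrd5 was 1.73% in control and 1.18% in doxorubicin oocytes.

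Of the PIWI genes, Piwil2 had 284 CPM in control oocytes (lowest 79.2, median 279, highest 980) and 293 CPM after doxorubicin (lowest 147, median 243, highest 624). The ranges overlapped throughout, and the log2 ratio of 0.05 ran from -0.05 to 0.21 when each cell was left out. Piwil4 was the 1 gene near the limit of detection, with 3.90 CPM in control oocytes (lowest 0, median 4.68, highest 16.1) and 8.45 CPM after doxorubicin (lowest 0, median 11.03, highest 22.0). It had at least 1 CPM in 11 of 16 control oocytes (68.8%, exact binomial interval 41.3% to 89.0%) and in 9 of 16 doxorubicin oocytes (56.3%, 29.9% to 80.2%). The cells that held it thus held more after doxorubicin, while no more cells held it. Its log2 ratio of 1.12 (counting interval 0.99 to 1.24) was 0.87 without control oocyte 16. That library had 0 CPM of Piwil4 and the highest total, 31262609 counts, so it weighed most in the summed counts. In the oocytes with under 200 CPM of granulosa markers the ratio was 0.44, so the 2-fold difference depended on which cells were included.

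Among the other Tudor genes, Tdrd9 had 569 CPM in control oocytes (lowest 254, median 458, highest 1103) and 429 CPM after doxorubicin (lowest 112, median 411, highest 1002). Of the doxorubicin oocytes 5 of 16 lay below the lowest control oocyte and the rest within the control range. How many of all genes had as many below was not computed. The log2 ratio was -0.41, from -0.54 to -0.28 when each cell was left out, and was -0.08 in the oocytes with under 200 CPM of granulosa markers. Tdrd1 had 642 CPM in control oocytes (lowest 263, median 605, highest 1113) and 585 CPM after doxorubicin (lowest 198, median 585, highest 983), a log2 ratio of -0.14. Tdrd7 had 90.0 CPM (lowest 24.6, median 86.0, highest 166) and 83.8 CPM (lowest 28.2, median 61.4, highest 262), a log2 ratio of -0.10 that was -0.32 without doxorubicin oocyte 12 and -0.48 as a difference of medians. Tdrkh had 134 CPM (lowest 64.9, median 121, highest 211) and 119 CPM (lowest 34.3, median 124, highest 176), a log2 ratio of -0.17 that was -0.03 without control oocyte 16 and 0.04 as a difference of medians. For these 3 genes at most 2 doxorubicin oocytes lay outside the control range on either side.

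Mov10l1 had a wider range over the cells after doxorubicin. It had 631 CPM in control oocytes (lowest 378, median 535, highest 964) and 734 CPM after doxorubicin (lowest 280, median 514, highest 1812). Of the 16 doxorubicin oocytes 4 lay below and 5 above the control range. The log2 ratio was 0.22, was 0.07 without doxorubicin oocyte 8, and was -0.06 as a difference of medians, so its direction depended on how cells were summarised. Mael had 783 CPM in control oocytes (lowest 455, median 724, highest 1312) and 908 CPM after doxorubicin (lowest 493, median 811, highest 1427), a log2 ratio of 0.21 that ran from 0.16 to 0.27 when each cell was left out. Of the doxorubicin oocytes 3 lay above the highest control oocyte and 0 below the lowest. For neither Mov10l1 nor Mael was the share of all genes with as many cells outside the control range computed.

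**Figure D3:**
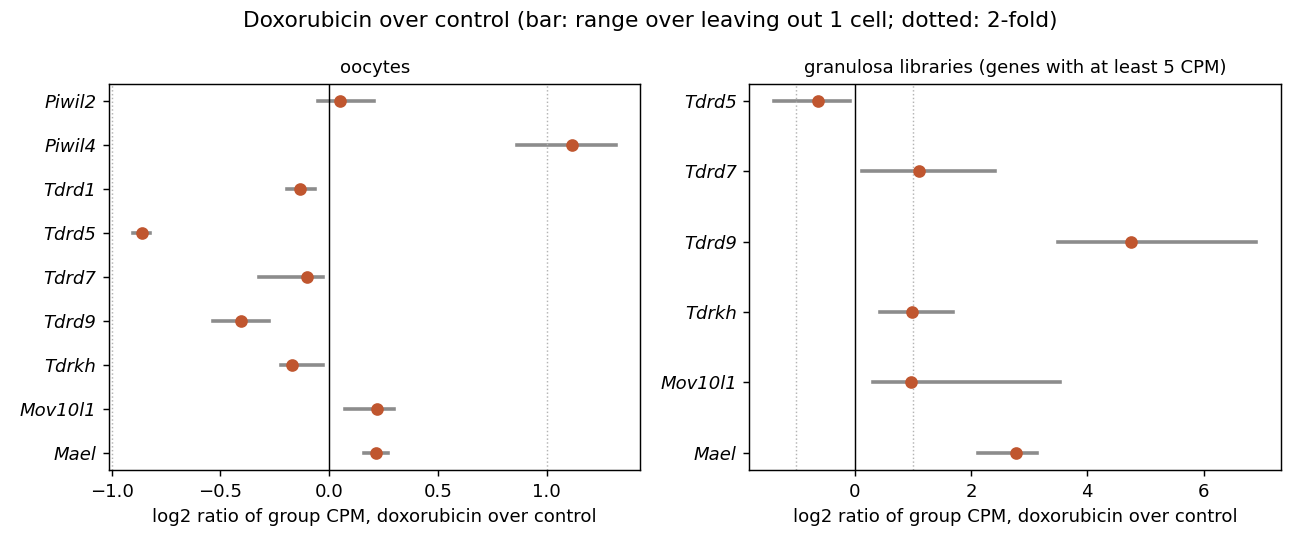
Log2 ratio of group CPM, doxorubicin over control, for the 9 genes in oocytes (left) and for the 6 genes that reached 5 CPM in granulosa libraries (right); points are the ratio over all cells, bars the range when each cell is left out in turn and dotted lines 2-fold. In oocytes Tdrd5 stays between -0.90 and -0.82, while bars in granulosa libraries are wider, such as 0.12 to 2.42 for Tdrd7.

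Across single oocytes the 9 genes did not vary as 1 block. Over the 16 control oocytes the 36 pairs had a median Spearman correlation of 0.13, from -0.71 for Piwil4 and Tdrd5 to 0.59 for Tdrd9 and Tdrkh. Over the 16 doxorubicin oocytes the median was 0.28, from -0.37 for Piwil4 and Tdrd9 to 0.71 for Piwil2 and Tdrd7, and 8 pairs reached 0.5 against 3 in controls. Both lowest values involve Piwil4, which had at least 1 CPM in only 11 of 16 control and 9 of 16 doxorubicin oocytes. Its ranks therefore held ties at 0, and its correlation with Tdrd5 was 0.09 in doxorubicin oocytes. Piwil2 and Tdrd1, partners in the granules, had 0.57 in control and 0.54 in doxorubicin oocytes. Against Cdkn1a in doxorubicin oocytes, the correlation was -0.68 for Tdrd1, -0.50 for Mael, -0.46 for Piwil2, -0.43 for Mov10l1, -0.41 for Tdrd9, -0.31 for Tdrd5, -0.29 for Tdrd7, 0.03 for Tdrkh and 0.32 for Piwil4. In control oocytes, where Cdkn1a was lower, the correlation with it was -0.50 for Tdrd1 and ran from -0.20 (Mov10l1) to 0.29 (Tdrd5) for the others. Tdrd1 in doxorubicin oocytes also had -0.60 with the granulosa marker sum, whose part in its correlation with Cdkn1a was not tested. Cells of a group may share animals, and the CPM values of a cell share its total, so these are descriptions over 16 cells.

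The genes most like each member were ranked by the lower of its Spearman correlations in control and in doxorubicin oocytes, among 6691 genes with at least 5 reads in all 32 oocytes. Piwil2 was followed most closely by Kif16b, a kinesin motor of endosomes (0.81), then by Itsn2 (0.79) and Emc1 (0.76). Tdrd1 was closest to Kdm1b, a histone H3K4 demethylase needed for maternal imprints in oocytes (0.69), then to Myo5b and Epn2 (both 0.68). Tdrd5 was closest to Aldh16a1 (0.72), Faap100, of the Fanconi anaemia core complex (0.65), and Atf7ip, a partner of the H3K9 methyltransferase Setdb1 (0.61). Tdrd7 was closest to Ralgapa1 (0.78), Tdrd9 to the deacetylase Hdac6 (0.68), Mov10l1 to the O-GlcNAc transferase Ogt (0.63), Mael to Czib (0.60) and Tdrkh to Pus10 (0.59). The 99th percentile over all genes compared was 0.38 for Tdrkh and 0.58 for Piwil2, with the other 6 ranked genes between.

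Other components of the pathway, a list of 26 genes, were set beside the 9. The table had a row for 25, and 21 had at least 5 CPM in either oocyte group. Their median log2 ratio, doxorubicin over control, was 0.10, with 12 higher and 9 lower. Past 2-fold 0 were higher, where 6.3% of all genes were, and 1 was lower, where 2.45% were. The lower gene was Dnmt3c, a DNA methyltransferase for young transposons. It was low in both groups (control 5.20 CPM, doxorubicin 2.39 CPM) and reached the limit in the control group alone. Tex15, a nuclear partner of MIWI2, had 446 CPM in control oocytes (lowest 133, median 453, highest 770) and 269 CPM after doxorubicin (lowest 16.6, median 262, highest 556), a log2 ratio of -0.73. Of the doxorubicin oocytes 4 lay below the control range for Tex15, and the share of all genes with as many was not computed. Exd1, a partner of Tdrd12, had a ratio of -0.54, and Spindoc, a binding partner of the histone reader Spin1, had -0.48. Gtsf1, a cofactor that speeds slicing by PIWI proteins, had 693 CPM in controls and 886 CPM after doxorubicin, a ratio of 0.35. Asz1, a mitochondrial scaffold, had 0.34, Pnldc1, the trimming nuclease, 0.40, and Kif17, a kinesin, 0.58. Ddx4, the germ cell helicase also called Vasa, had 269 CPM in controls and 271 CPM after doxorubicin, a ratio of 0.01, and Gpat2, of the mitochondrial surface, had -0.27. The 4 genes below the level limit included Dnmt3l and Tdrd6, which had 0 counts over the control oocytes, where 3 counts would be 0.0153 CPM, and 1.05 and 0.369 CPM after doxorubicin. These levels came from few cells, as 3 of 16 doxorubicin oocytes held any Dnmt3l and 2 any Tdrd6. The log2 ratio of Tdrd6 fell from 4.59 to 0.66 without doxorubicin oocyte 5. That of Dnmt3l fell from 6.09 to 4.72 without doxorubicin oocyte 4.

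**Figure D4:**
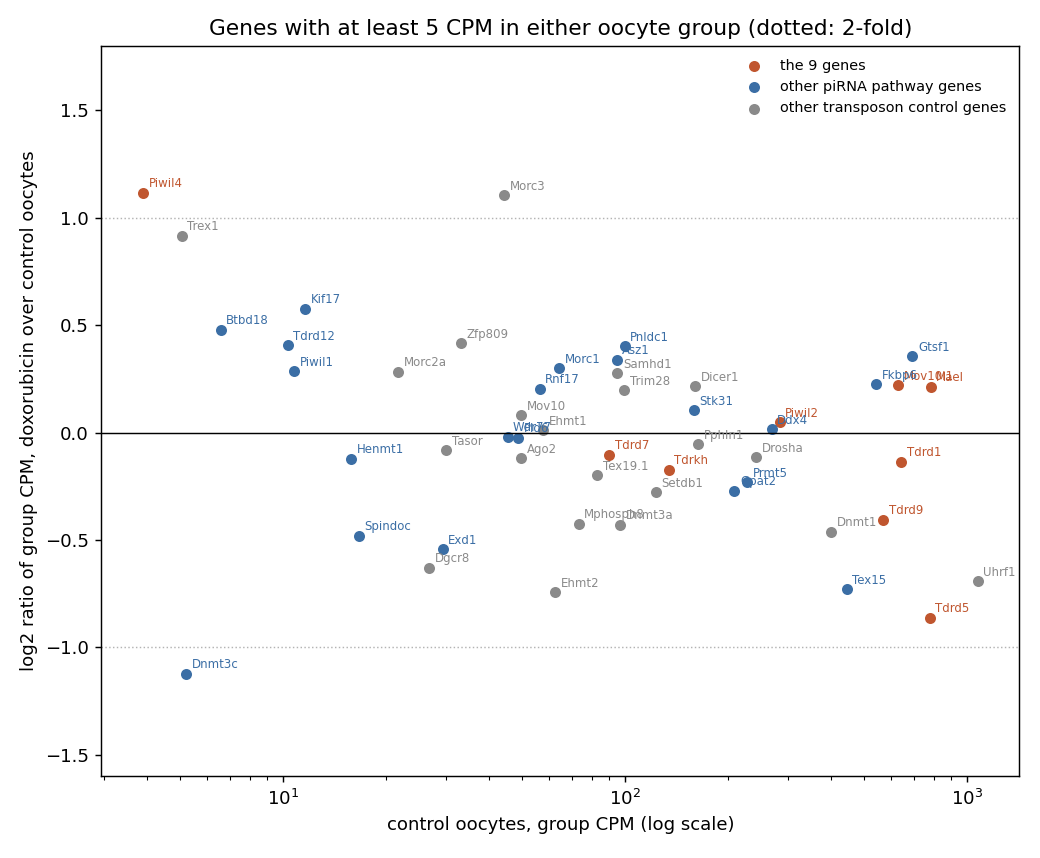
Log2 ratio of group CPM, doxorubicin over control oocytes, against the control level in CPM on a log scale, for the 9 genes, the other piRNA pathway genes and other transposon control genes reaching 5 CPM in 1 group or both; dotted lines mark 2-fold. Tdrd5 (-0.86), Tex15 (-0.73) and Uhrf1 (-0.69) lie lowest among the genes above 100 CPM.

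Between control oocytes and control granulosa libraries the 9 genes were higher in oocytes. Of the 9, 8 had at least 5 CPM in either group, and 7 of these were past 2-fold higher in oocytes, where 29% of 12373 genes were. None was past 2-fold lower, where 31.3% were. Every control oocyte lay above every control granulosa library for 5 genes, Piwil2, Tdrd1, Tdrd9, Mov10l1 and Mael, where 3.25% of all genes did so. Piwil2, Tdrd1 and Tdrd9 had at least 5 CPM in oocytes alone, so the limit fixed the direction of their difference, though not its size. The median log2 ratio was 4.77, against -0.03 over all genes, and the limit on these 3 genes bore on it. The 5 genes with at least 5 CPM in both groups had 5.13 (Mov10l1), 4.42 (Mael), 3.16 (Tdrd5), 2.49 (Tdrkh) and 0.89 (Tdrd7).

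Tdrd1 had the widest gap of the 9, with 0.200 CPM over the control granulosa libraries and a highest library of 0.437 CPM, and a log2 ratio of 11.65 (counting interval 11.18 to 12.16). Tdrd9 had 0.506 CPM there (highest 5.37) and a ratio of 10.13, and Piwil2 had 0.601 CPM (highest 11.2, in control granulosa library 15) and a ratio of 8.88. Without the library that held most of their counts the ratios were 12.28 for Tdrd9 and 11.57 for Piwil2. Mov10l1 had 18.04 CPM, nearly all from control granulosa libraries 9 (251 CPM) and 12 (55.1 CPM), and a ratio of 5.13 that was 7.69 without library 9. Mael had 36.6 CPM (lowest 0.161, median 27.0, highest 244) and a ratio of 4.42, with at least 1 CPM in 10 of 16 libraries.

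The other members reached oocyte levels in single granulosa libraries. Tdrd5 had 87.0 CPM over the control granulosa libraries (lowest 0.150, median 35.3, highest 787) and at least 1 CPM in 11 of 16, so that the highest, library 14, lay within the range of control oocytes, and the ratio was 3.16. Tdrd7 had 48.7 CPM with a median of 0 and a highest library of 482 CPM, above every control oocyte, and a ratio of 0.89 that was 2.20 without that library 8. Tdrkh had 23.9 CPM with a median of 0.0811 and a highest of 255 CPM, in library 14, and a ratio of 2.49. Libraries 8 and 14 had oocyte marker sums of 17710 and 9875 CPM, above granulosa sums of 2578 and 2080 CPM. Their stroma sums were 8401 and 5170 CPM. Among libraries with the higher granulosa sum, Tdrd7 had 69.5 CPM in library 7 and 177 CPM in library 10, and Tdrkh had 85.4 CPM in library 5. The part of the marker sums in these levels was not tested. Piwil4 was found in 1 control granulosa library, library 1, at 25.998 CPM, and had 0 counts in the 13 doxorubicin granulosa libraries, where 3 counts would be a group level of 0.0210 CPM. In the 10 control libraries with the higher granulosa sum the ratio of oocytes over granulosa libraries was 11.80 for Tdrd1, 9.57 for Tdrd9, 8.31 for Piwil2, 4.55 for Mael, 4.44 for Mov10l1, 3.93 for Tdrkh, 3.42 for Tdrd5 and 1.60 for Tdrd7. Of the other pathway genes 21 had at least 5 CPM in either control group, 19 were past 2-fold higher in oocytes (29% of all genes) and 1, Wdr77, the partner of the arginine methyltransferase Prmt5, was past 2-fold lower (-1.58, 31.3% of all genes). Of the 19, 14 reached 5 CPM in oocytes alone, so the limit fixed their direction, and the other 5 were Gpat2, Fkbp6, Gtsf1, Tex15 and Prmt5.

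**Figure D5:**
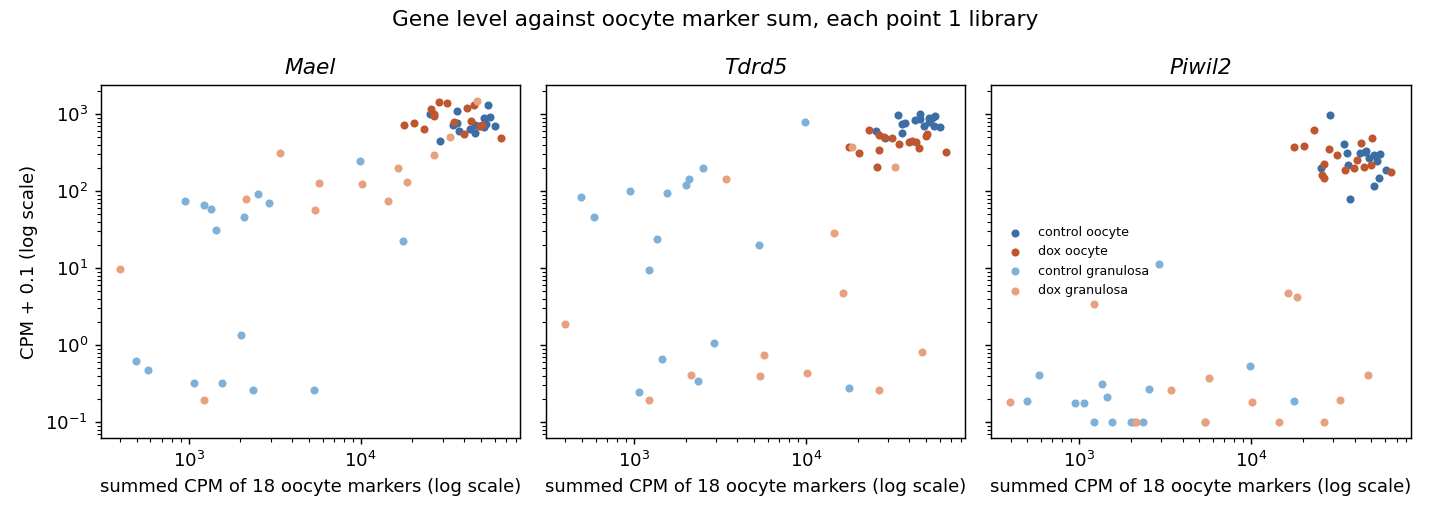
CPM + 0.1 of Mael, Tdrd5 and Piwil2 against the summed CPM of 18 oocyte markers, both on log scales, with each point 1 library of the 4 groups (dox, doxorubicin). Mael in doxorubicin granulosa libraries goes with the oocyte marker sum (Spearman 0.77 over 13 libraries), while Piwil2 stays at or below 4.70 CPM in them.

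Doxorubicin over control in granulosa libraries gave higher values for most of the members that could be measured, in few libraries each. Of the 9 genes 6 had at least 5 CPM in either group, with a median log2 ratio of 1.05 against -0.03 over 12194 genes, 5 higher and 1 lower. Past 2-fold 3 were higher (Mael, Tdrd9 and Tdrd7), where 20.6% of all genes were, and 0 were lower, where 20% were. Tdrd9 reached 5 CPM in the doxorubicin group alone, so the limit fixed its direction and bore on the median. Mael had 249 CPM after doxorubicin (lowest 0.0937, median 129, highest 1485) and a ratio of 2.77, from 2.13 without doxorubicin library 1 to 3.13. It had at least 1 CPM in 12 of 13 doxorubicin libraries. Of these 4 lay above every control granulosa library, and the share of all genes with as many was not computed. Mael went with the oocyte marker sum over the 13 doxorubicin libraries (Spearman 0.77, Pearson 0.85), and this sum had the higher median after doxorubicin, as given above. In the 10 control and 5 doxorubicin libraries with the higher granulosa sum Mael had 33.4 and 95.4 CPM, a ratio of 1.52.

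Tdrd9 had 13.7 CPM after doxorubicin against 0.506 CPM in control granulosa libraries, a log2 ratio of 4.76 (3.51 without doxorubicin library 2 and 6.91 without control library 7). Its median after doxorubicin was 0.437 CPM and 4 of 13 libraries had at least 1 CPM, up to 111 CPM. Tdrd7 had 105 CPM after doxorubicin (median 1.66, highest 676, in library 9), and its ratio of 1.10 was 0.12 without that library and 2.42 without control library 8. Tdrkh had 47.7 CPM with at least 1 CPM in 7 of 13 libraries, against 3 of 16 controls, and a ratio of 0.995, just under 2-fold, that ran from 0.44 to 1.69. It went with the oocyte marker sum at a Spearman correlation of 0.57 over the 13 libraries. Mov10l1 had 35.2 CPM from 3 of 13 libraries and a ratio of 0.96, from 0.33 to 3.53. All 3 of these libraries had the higher oocyte sum, and in the libraries with the higher granulosa sum Mov10l1 had 0.416 CPM after doxorubicin and 29.1 CPM in controls, a ratio of -6.13. That ratio rested on the 2 of 10 control libraries with at least 1 CPM of Mov10l1. By medians it had 0.153 CPM in these controls and 0.416 CPM after doxorubicin. Tdrd5 was the 1 member lower after doxorubicin in both cell types among the 6, with 56.4 CPM (median 0.727, highest 379) and a ratio of -0.63, from -1.39 without doxorubicin library 12 to -0.07 without control library 14. In the libraries with the higher granulosa sum the ratios were 3.65 for Tdrd9, 0.81 for Tdrd7, 1.09 for Tdrkh and -1.23 for Tdrd5.

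Piwil2 and Tdrd1 stayed low in granulosa libraries where Mael was high. In doxorubicin granulosa libraries Piwil2 made up 0.364% and Tdrd1 1.46% of the Mael counts, whereas in doxorubicin oocytes they made up 32.3% and 64.4%. Piwil2 reached 4.70 CPM at most and Tdrd1 19.8 CPM, in a library (13) with 9.58 CPM of Mael. Doxorubicin granulosa library 1, which had the highest oocyte marker sum (47561 CPM), had 1485 CPM of Mael, 258 CPM of Tdrkh and 210 CPM of Mov10l1. The other members were low in it, with 1.35 CPM of Tdrd1, 0.727 of Tdrd5, 0.623 each of Tdrd7 and Tdrd9, 0.311 of Piwil2 and 0 of Piwil4. Of the other pathway genes 12 had at least 5 CPM in either granulosa group, with a median ratio of 1.69, and 7 were past 2-fold higher, where 20.6% of all genes were. Of these 7, 5 reached 5 CPM in the doxorubicin group alone (Asz1, Tdrd12, Morc1, Mybl1 and Kif17), so the limit fixed their direction and bore on the median. The other 2 were Gtsf1 (115 CPM in control and 308 CPM in doxorubicin libraries) and Spindoc (12.8 and 49.5 CPM).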

How the data were processed

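The values are estimated counts, which the authors deposited as 1 table of genes by cells, and 27.1% of the nonzero values were not whole (tolerance 0.001). Per the labels' protocols, single cells were lysed and cDNA was made with the SMART-seq v4 kit and Nextera XT. The submitters' processing notes name Partek, Bowtie2, HISAT2, DESeq2 and mm10, with no roles or versions. The annotation, the counting rule and its use of strand are not given in the sources used here, and Piwil4, Tdrd5 and Tdrkh overlap exons of genes on the opposite strand (Gm10706, 4930518J20Rik and Oaz3), which had at most 1.34 CPM in either oocyte group.

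All 61 columns were matched to samples by name, and no columns were identical. Doxorubicin oocyte 4, whose raw data are stated to be lost, was kept. Symbols turned into dates stood in 22 rows (0.144% of counts) and stayed in the totals. Estimated counts were rounded, summed over the cells of a group and divided by the group's total to give CPM. The main value was the log2 ratio of group CPM, with a group under 3 counts set to 3, over genes that reached 5 CPM in 1 group or both. Intervals are 95% exact (conditional binomial for ratios, binomial for shares of cells). They cover counting error only, since amplified reads without molecular identifiers are not independent molecules. With totals from 6834594 counts, 1 CPM was at least several reads in every library. The calculation was tested on simulated data. Named genes were the 9 members, genes of the pathway and transposon control lists with at least 5 CPM in a group, and the 3 genes most like each member, and genes named at lower levels were chosen after their values were seen. The members and lists were chosen with earlier results of these data known. Python 3.11.15 with pandas 2.3.3 and scipy 1.17.1 was used, with scaling factors from edgeR 4.0.16 and DESeq2 1.42.0 in R 4.3.3 as alternatives. Gene positions and lengths came from GENCODE M21 (GRCm38) and promoters from RefSeq (GRCm38.p6), whose start sites can differ. The other alternatives were means or medians over cells, leaving out each cell, no level limit, a threshold of 0.5, and subsets of libraries by marker sums, of which limits of 200 and 5000 CPM were chosen after seeing the data.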

Additional observations from a re-analysis of the deposited data

Results flagged for a closer look

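For Tdrd7, Tdrd9 and Tdrkh the ratio of doxorubicin over control pointed in opposite directions in oocytes (lower) and in granulosa libraries (higher), in the counting intervals and with each cell left out in turn. The log2 ratio in granulosa libraries minus that in oocytes was 1.21 for Tdrd7, 5.17 for Tdrd9 and 1.17 for Tdrkh. The differences were not tested. Among granulosa libraries Tdrd9 reached 5 CPM in the doxorubicin group alone, so the limit fixed its direction there. Its difference in oocytes was much smaller in those with under 200 CPM of granulosa markers, as given above. For Tdrkh the direction in oocytes turned with the summary, from -0.17 as a ratio of group CPM to 0.04 as a difference of the cells' medians, and was -0.03 without control oocyte 16. In granulosa libraries these genes had at least 1 CPM in 7, 4 and 7 of 13 doxorubicin libraries, and the oocyte marker sum had the higher median after doxorubicin there (10150 against 1785 CPM), whose part in the result was not tested.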

How the results depend on the processing

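No paired analysis was possible because each group counted as 1 sample and came from no test, and the replicate numbers only name cells. In oocytes the median log2 ratio of the 9 genes, doxorubicin over control, was -0.10. It was -0.056 as a difference of the cells' medians, 0.0089 in oocytes with under 200 CPM of granulosa markers, and from -0.19 to -0.028 leaving out each cell. The count past 2-fold, 1 gene (Piwil4), was 0 with a mean that weights cells equally, 0 in oocytes with under 200 CPM of granulosa markers, 0 with under 200 CPM of granulosa and of stroma markers, 2 past 0.5, and 0 to 1 leaving out each cell (0 without control oocyte 16). In granulosa libraries the median of 1.05 was 0.89 by medians, 0.95 in libraries with the higher granulosa sum, 0.50 in those with at least 5000 CPM of granulosa markers, 0.995 with no level limit, and 0.82 (without doxorubicin library 1) to 1.99 (without control library 8) leaving out each cell. The count past 2-fold, 3, was 5 in libraries with the higher granulosa sum, where Tdrd5 and Mov10l1 were the lower ones, 5 with no level limit, 6 past 0.5, and 2 to 5 leaving out each cell (5 without any 1 of doxorubicin libraries 4, 7, 8, 12, 13, 14, 15 or 16). Tdrkh (0.995) and Mov10l1 (0.96) stood just under 2-fold. For oocytes over granulosa libraries the median of 4.77 was 4.56 by the mean over cells, 7.41 by medians, 4.83 with DESeq2 size factors, 4.49 in libraries with the higher granulosa sum, 4.42 in those with at least 5000 CPM of granulosa markers, 4.42 with no level limit, and 4.66 to 6.09 (without control granulosa library 9) leaving out each cell, and 7 to 8 genes were past 2-fold leaving out each cell. Of the alternative values of single genes 109 moved by less than the counting interval and 143 by more. Depth bears most on Piwil4, with 763 counts over the control oocytes. The number of animals is not given, so no value here describes spread between animals.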

Other observations

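Other genes that hold transposons in check were set beside the piRNA genes as a list of 22, all with a row, of which 21 had at least 5 CPM in either oocyte group. Their median log2 ratio, doxorubicin over control oocytes, was -0.08, with 9 higher and 12 lower. Past 2-fold 0 were lower, where 2.45% of all genes were, and 1 was higher, where 6.3% were. That gene was Morc3, a nuclear ATPase that silences endogenous retroviruses, with 44.4 CPM in control oocytes (lowest 12.2, median 37.8, highest 86.7) and 95.4 CPM after doxorubicin (lowest 24.4, median 88.6, highest 194), a log2 ratio of 1.10 that ran from 1.01 to 1.18 leaving out each cell. Of the 16 doxorubicin oocytes 8 lay above every control oocyte for Morc3, and the share of all genes with as many was not computed. Uhrf1, which recruits the maintenance methyltransferase to replicated DNA, had 1074 CPM in controls and 664 CPM after doxorubicin, a log2 ratio of -0.69. For Uhrf1 3 of 16 doxorubicin oocytes lay below the control range, and that share was not computed either. Ehmt2, an H3K9 methyltransferase, had -0.74, Dgcr8, of the microRNA processor, had -0.63, and Dicer1, which makes the small interfering RNAs of oocytes, had 0.22 (161 and 187 CPM).

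Against granulosa libraries this list had no common direction in controls, with a median log2 ratio of 0.11 over 22 genes. Past 2-fold 6 were higher in oocytes, where 29% of all genes were, and 3 were lower, where 31.3% were. Every control oocyte lay above every control granulosa library for Uhrf1 (4.61), Drosha (3.50) and Tex19.1 (12.28), and for 3.25% of all genes. Tex19.1 had 3 counts in all control granulosa libraries together. Apobec3, an antiviral deaminase, was lower in oocytes (0.705 CPM against 14.5 CPM). Tex19.1 reached 5 CPM in oocytes alone and Apobec3 in granulosa libraries alone, so the limit fixed their directions.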
